A study of Arabidopsis thaliana with 2 samples.

Results

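The DNA methyltransferases of the MET, CMT and DRM families are the enzymes that place 5-methylcytosine in the genome of *Arabidopsis thaliana*. The 10 loci described here were taken by their locus names from the annotation: 4 MET, 3 CMT and 3 DRM genes. At least 1 of the libraries listed 8 of the 10, among 17419 listed loci in all. The data comprise 1 condition, wild-type central cells of the accession Landsberg *erecta*, cut by laser-assisted microdissection (LAM) from mature embryo sacs in flowers fixed 2 days after emasculation. The 2 biological replicates, CC1 and CC2, were each sequenced from a pool of about 450 cells after oligo-dT primed amplification. The authors reported slightly shorter cDNA and a lower yield for CC1 than for CC2. With a single cell type and no treatment there was nothing to test between groups. In their separate assembly, the authors found transcripts matching fungi in CC1 and not in CC2. They held an effect on the aligned hits unlikely, since reads matching these fungi mostly failed to align to the *Arabidopsis* genome.

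Methylation of the 3 cytosine contexts of plants depends on different enzymes. MET1 copies methylation at CG sites onto the new strand after replication. The chromomethylases (CMT) carry a chromodomain that binds methylated histone H3 lysine 9, and CMT3 acts mainly at CHG sites (H stands for A, C or T) and CMT2 in the CHH context of heterochromatin. DRM2 methylates cytosines de novo, guided by small RNAs, in a pathway known as RNA-directed DNA methylation. The central cell is the gamete that gives rise to the endosperm, and its genome is known for active demethylation by the glycosylase DEMETER (DME).

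The catalytic centre of these enzymes is a cysteine that follows a proline (motif IV of the C5 methyltransferases), and its codons are shown here because the residue is needed for catalysis and 1 member lacks it. The windows of 42 bases were read 5′ to 3′ along each gene from the assembly TAIR10.1, which is that of the accession Columbia and not of Landsberg *erecta*, with the codons of the proline and the residue after it in capitals. In the 4 MET genes, the window joins the exons on either side of 1 intron.

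MET1, chr5:19936564-19936687, plus strand: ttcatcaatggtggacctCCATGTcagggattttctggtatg
MET2, chr4:8150591-8150710, plus strand: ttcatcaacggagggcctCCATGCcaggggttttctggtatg
MET2b, chr4:5768934-5769051, plus strand: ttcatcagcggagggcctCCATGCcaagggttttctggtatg
MET3, chr4:7919682-7919807, plus strand: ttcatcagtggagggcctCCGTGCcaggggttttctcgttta
CMT1, chr1:30344896-30344937, plus strand: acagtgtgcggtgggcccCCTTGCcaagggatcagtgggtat
CMT2, chr4:10418883-10418924, plus strand: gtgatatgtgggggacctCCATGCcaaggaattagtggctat
CMT3, chr1:26250490-26250531, minus strand: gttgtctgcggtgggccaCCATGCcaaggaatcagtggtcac
DRM1, chr5:4994677-4994718, plus strand: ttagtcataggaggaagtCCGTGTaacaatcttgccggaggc
DRM2, chr5:4715531-4715572, minus strand: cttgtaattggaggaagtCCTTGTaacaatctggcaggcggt
DRM3, chr3:5909387-5909428, minus strand: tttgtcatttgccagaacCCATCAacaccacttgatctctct

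In 9 of the 10 genes the second capital codon is TGT or TGC, both of which code for cysteine. The motif was searched in the translated sequence as glycine, glycine or serine, proline or serine, proline, cysteine, and glutamine or asparagine, and it was found once in each of these 9 genes. DRM3 had no match, and its window is the place that a protein alignment set opposite the cysteine of DRM2, where the second codon is TCA, a serine codon. The annotation describes DRM3 as a catalytically mutated paralog of DRM2. The order of the motifs also separated the classes. Motif VI, glutamate, asparagine and valine, lay 40 codons after the cysteine in all MET genes and 42 codons after it in all CMT genes. In DRM1 and DRM2 the nearest such triplet lay 273 and 275 codons before the cysteine, the rearranged order from which the DRM genes take their name.

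A hit is an alignment of a read, weighted where the read aligned to several places. Levels are given as hits per 1000000 hits listed in that library (HPM). The reads are single-end and carry no information on the strand. The replicates held 15257122 (CC1) and 14857500 (CC2) listed hits, on 14454 and 16391 loci. A locus was listed by the authors only with at least 5 hits and with a hit in the last 250 bases of a transcript, so that "not listed" is not a measured 0. Levels of single genes were ranked after division by the length of the longest transcript (HPM per kb), and shares of hits are not scaled by length. The median nuclear protein-coding locus that was listed held 11.1 HPM per kb in CC1 and 8.86 in CC2. The intervals given below are 95% Wilson intervals of a share of hits and treat the hits as independent. Amplified reads are not independent molecules, so that these intervals can be too narrow even for counting error. They leave out the spread between replicates, which is given as the SD of n = 2.

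Of the 10 members, 5 were listed in both replicates (MET1, MET2, MET2b, CMT1 and CMT3), 3 in CC2 alone (MET3, CMT2 and DRM2) and 2 in neither (DRM1 and DRM3). CC2 also listed more loci in the whole series, with 16391 against 14454 in CC1, of 17419 listed in either. Over all annotated nuclear protein-coding loci, 47.2% were listed in both replicates and 60.5% in at least 1. Among those with a transcript at least as long as that of the shortest member (1973 bp), 75.2% were listed in at least 1 replicate. The 8 of 10 members thus lay close to the share for loci of such length.

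CMT1, MET2b and MET2 carried most hits of the family, and the well-studied enzymes MET1, CMT3, CMT2 and DRM2 held fewer. In CC1, CMT1, MET2b and MET2 together took 91.3% (95% Wilson interval 90.6 to 92.0) of the 6270 hits on the family. In CC2 they took 85.3% (84.5 to 86.0) of 7833 hits. The family as a whole held 411 HPM in CC1 and 527 HPM in CC2 (469 ± 82.2, SD, n = 2). The paper compared these cells with published RNA sequencing data of other tissues and cell types. It names CMT1, MET2 and AT4G08990 (MET2b) among the genes enriched in the central cell, and calls these results preliminary. That comparison was not repeated here.

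**Figure D1:**
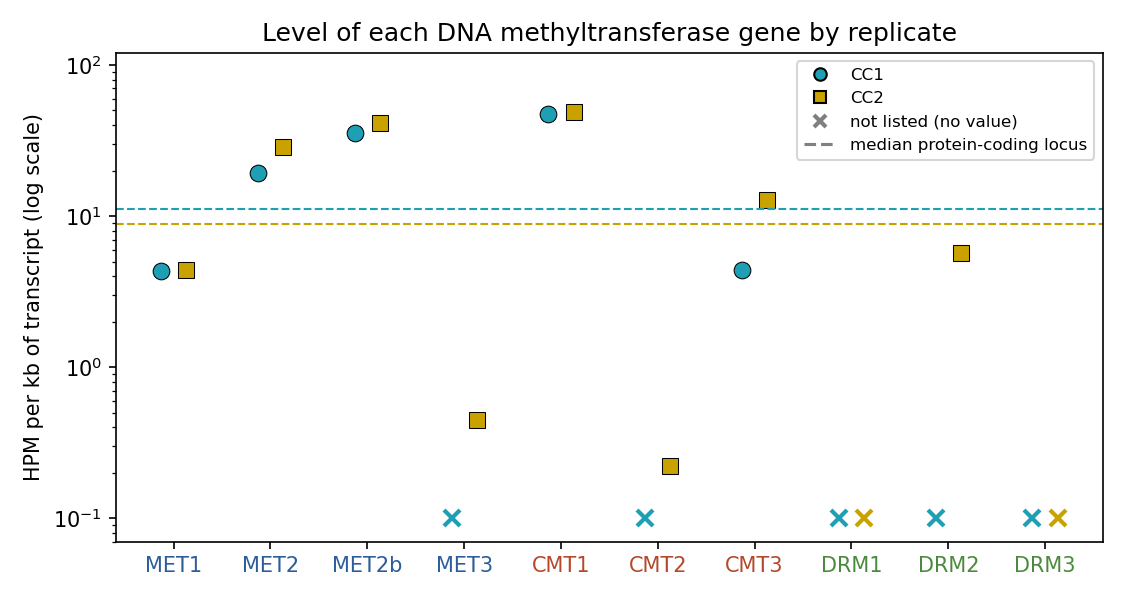
Level of each member in HPM per kb of transcript on a log axis, with CC1 as circles and CC2 as squares. Crosses at the lower edge mark a member that was not listed in that replicate and carry no value, and the dashed lines mark the median listed nuclear protein-coding locus of CC1 (11.1 HPM per kb) and CC2 (8.86). CMT1, MET2b and MET2 lie above the lines in both replicates and MET1 below them, while in HPM without length scaling MET1 is above the medians (22.0 against 19.95 in CC1, 22.4 against 16.15 in CC2). CMT3 lies below the line of CC1 and above that of CC2.

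By class, the MET genes held 274 HPM in CC1 and 348 in CC2 (311 ± 52.3, SD, n = 2). The CMT genes held 137 HPM in CC1 and 166 in CC2 (151 ± 20.5). The DRM genes held no listed hit in CC1 and 13.3 HPM in CC2, all on DRM2. As a share of the hits of the family, the MET class was nearly the same in both replicates, at 66.7% in CC1 (65.5 to 67.8) and at 66.0% in CC2 (65.0 to 67.1). The CMT class took 33.3% (32.2 to 34.5) and 31.5% (30.4 to 32.5), and the DRM class 2.53% (2.2 to 2.9) in CC2. The MET transcripts are 4215 to 5062 bp long and those of CMT1 and CMT3 2593 and 3066 bp. Summed per kb, the MET class held 59.2 HPM per kb in CC1 and 75.2 in CC2, against 52.0 and 61.5 for the CMT class, and DRM2 alone 5.72 in CC2. With an amplified pool of cells, more transcripts per cell and more cells with the transcript cannot be told apart.

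**Figure D2:**
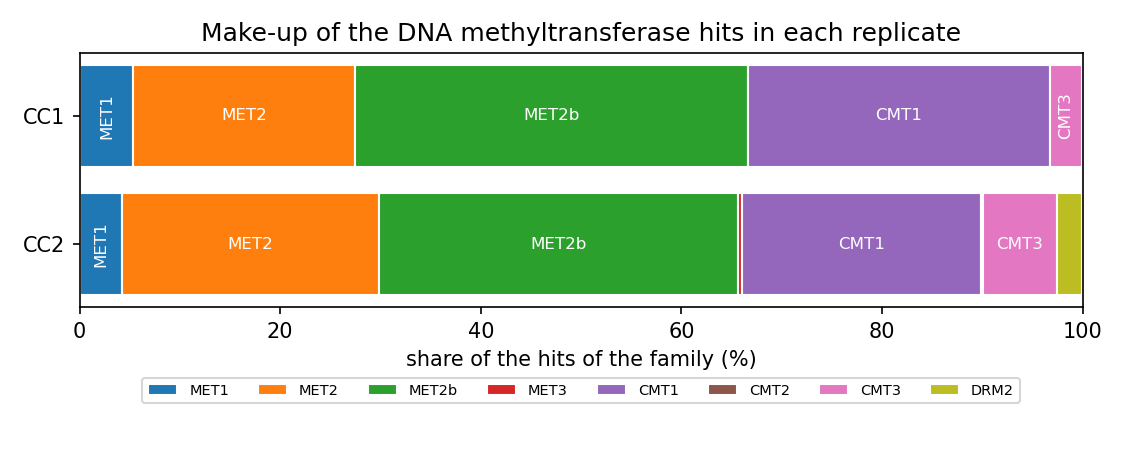
Share of the hits of the family that fell on each member, as stacked bars of CC1 and CC2 (percent of all hits on the 10 loci). MET2 and MET2b together take 61.3% in CC1 and 61.4% in CC2, CMT1 takes 30.0% and 23.9%, and MET1 5.36% and 4.25%.

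MET1 (AT5G49160), the maintenance methyltransferase for CG sites, lies on chromosome 5 from 19932114 to 19938470 (plus strand), and its 12 exons make up a transcript of 5062 bp that ends in a 3′ UTR of 284 bp. CC1 gave 336.1 hits and CC2 gave 332.5. This was 22.0 HPM (interval 19.8 to 24.5) and 22.4 HPM (20.1 to 24.9), a difference of 1.02-fold between the replicates. Per kb its level was 4.39 ± 0.05 HPM (SD, n = 2), higher than 27.5% of the listed protein-coding loci in CC1 and 34.2% in CC2. Without division by length, MET1 stood above 52.8% of these loci in CC1 and 59.2% in CC2, against medians of 19.95 and 16.15 HPM. Its side of the median thus depended on the length scaling, and its transcript is the longest of the family.

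MET2b (AT4G08990) and MET2 (AT4G14140, DMT2 in the annotation) are relatives of MET1 whose role in the plant is not established. Their proteins share 71.8% (MET2b) and 71.1% (MET2) of the aligned residues with MET1. Both lie on chromosome 4, MET2b from 5764781 to 5770496 and MET2 from 8145998 to 8152131, on the plus strand. For MET2b, CC1 gave 2459 hits and CC2 gave 2806, or 161 HPM (155 to 168) and 189 HPM (182 to 196). For MET2, CC1 gave 1385 hits and CC2 gave 2005, or 90.8 HPM (86.1 to 95.7) and 135 HPM (129 to 141). The replicates differed by 1.17-fold for MET2b and by 1.49-fold for MET2, with CC2 higher for both. Per kb, MET2b exceeded MET1 by 8.16-fold in CC1 and 9.41-fold in CC2, and MET2 exceeded MET1 by 4.45-fold and 6.50-fold. These ratios are taken within a library and do not depend on its total. Oligo-dT priming favours 3′ ends, so that division by length can understate long transcripts, but the transcripts of these 3 genes are all between 4539 and 5062 bp long.

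The split of hits between MET2 and MET2b is less certain than their sum. The sum can also miss hits, since the authors discarded reads with several alignments where no uniquely aligned read supported any of them. How many were lost was not tested. Their proteins share 93.0% of 1511 aligned residues and their coding sequences 94.6% of the bases in the aligned codons. Of the windows of 50 bases (the read length) in the transcript of MET2, 55.7% were found in another member with at most 2 mismatches and 11.2% with none. For MET2b these shares were 54.4% and 11.2%. In the last 250 bases of both transcripts, where a locus needed a hit to be listed, all 201 windows had such a partner within 2 mismatches and 17 an exact one. The longest stretch identical in both coding sequences has 192 bases, chr4:8148199-8148390 in MET2 and chr4:5766557-5766748 in MET2b, each within 1 exon on the plus strand. It is shown because a read lying wholly within it cannot be assigned to either gene by its sequence.

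MET2 and MET2b: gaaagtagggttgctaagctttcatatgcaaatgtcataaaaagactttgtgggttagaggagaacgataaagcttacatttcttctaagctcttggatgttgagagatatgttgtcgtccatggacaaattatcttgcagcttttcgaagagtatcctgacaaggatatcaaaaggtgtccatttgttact

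The sum of both genes took nearly the same share of the family's hits in each replicate, with 61.3% in CC1 (60.1 to 62.5) and 61.4% in CC2 (60.3 to 62.5). The split within it moved from 22.1% MET2 and 39.2% MET2b in CC1 to 25.6% and 35.8% in CC2. All 4 MET genes had values that are not whole numbers, as hits with several placements enter in fractions, while those of the listed CMT and DRM genes were all whole. No window of a CMT or DRM transcript was within 2 mismatches of another member. MET1 had few such windows, with 1.56% of its windows within 2 mismatches and none in its last 250 bases.

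**Figure D3:**
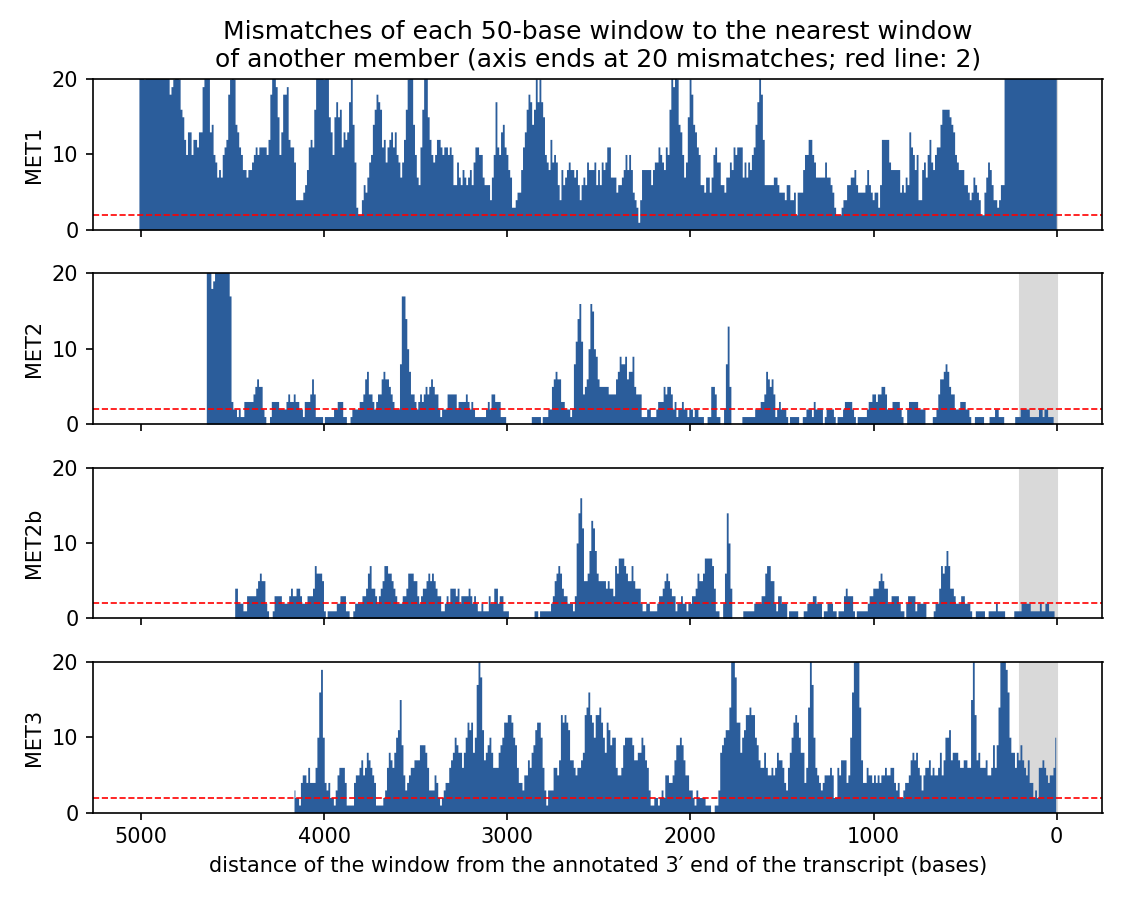
Mismatches of 50-base windows, taken every 10 bases along the MET transcripts, to the nearest window of another of the 10 members, against the distance from the annotated 3′ end in bases, in a panel for each gene. The y axis ends at 20 mismatches, the red line marks 2, and the grey band holds the windows within the last 250 bases. In MET2 and MET2b the windows stay at or below the line over all of the grey band, and in MET1 they lie above it there.

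MET3 (AT4G13610, MEE57 in the annotation) is a further MET gene, on chromosome 4 from 7915022 to 7921231 on the plus strand. Its protein shares 69.8% of the aligned residues with MET1 and 79.0% with MET2. MET3 was not listed in CC1 and held 27.9 hits in CC2, or 1.88 HPM (1.3 to 2.72). Per kb this was 0.45 HPM, higher than 3.73% of the listed protein-coding loci of CC2. MET2b exceeded it by 93.4-fold per kb in CC2. Of its windows, 10.2% were within 2 mismatches of another member, and its value was not whole. Outside the family, 13 of its windows occurred exactly in AT2G05730 or AT2G05740. The part of shared hits in the value of MET3 was not tested. In the annotation used here, the models of MET2, MET2b and MET3 end at the stop codon and hold no 3′ UTR, and the authors counted only hits on annotated transcripts.

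A transcribed pseudogene, AT4G08991, overlaps MET2b over 658 bp on the other strand and contains 158 of its windows exactly. It was not listed in CC1 and held 25.8 hits in CC2, few beside those of MET2b. AT4G14145 ends 116 bp beyond MET2 on the other strand and held 804.8 and 791.2 hits. Since the reads were unstranded, those from genes that overlap on opposite strands cannot be told apart.

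CMT1 (AT1G80740) had the highest level of the family per kb. It is the chromomethylase whose role is least known, and disrupted alleles of it occur in natural accessions. The gene lies on chromosome 1 from 30342394 to 30347048 (plus strand), with 20 exons that make up a transcript of 2593 bp. CC1 gave 1883 hits and CC2 gave 1869, or 123 HPM (118 to 129) and 126 HPM (120 to 132). The replicates thus differed by 1.02-fold. Per kb its level was 48.1 ± 0.65 HPM (SD, n = 2), higher than 83.0% of the listed protein-coding loci in CC1 and 86.0% in CC2. The counts hold no information on whether these transcripts were full-length, and the Landsberg *erecta* allele was not examined here. The next locus on the same strand, AT1G80745, begins 377 bp beyond CMT1 and held 50.2 and 50.5 hits.

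CMT3 (AT1G69770), the CHG methyltransferase, lay below CMT1 and was the member that differed most between the replicates. It lies on chromosome 1 from 26248118 to 26253687 (minus strand), with 21 exons that make up a transcript of 3066 bp. CC1 gave 206 hits and CC2 gave 581, or 13.5 HPM (11.8 to 15.5) and 39.1 HPM (36.1 to 42.4). The replicates differed by 2.90-fold, or 1.53 on the log2 scale. The counting intervals did not overlap, which also held for MET2 and MET2b. Per kb CMT3 stood above 27.7% of the listed protein-coding loci in CC1 and 59.0% in CC2. Without division by length these shares were 39.6% and 73.9%. Per kb CMT1 exceeded CMT3 by 10.8-fold in CC1 and 3.80-fold in CC2. CMT3 and MET1 were level in CC1 with a ratio of 1.01 per kb, while CMT3 was 2.89-fold higher in CC2. By hits, without division by length, CMT3 over MET1 was 0.613 in CC1 and 1.75 in CC2.

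CMT2 (AT4G19020), which methylates CHH and CHG sites of long heterochromatic transposons, was nearly absent from the listed hits. It lies on chromosome 4 from 10414428 to 10421265 on the plus strand, with 23 exons and a transcript of 4259 bp. It was not listed in CC1 and held 14 hits in CC2, or 0.94 HPM (0.56 to 1.58). Per kb this was 0.22 HPM, higher than 0.91% of the listed protein-coding loci of CC2. CMT1 exceeded it by 219-fold and CMT3 by 57.7-fold per kb in CC2. By hits, without division by length, these ratios were 133.5 and 41.5. The proteins of the chromomethylases share 45.8% to 51.2% of aligned residues, and no 50-base window of one was within 2 mismatches of another.

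DRM2 (AT5G14620), the main de novo methyltransferase, was listed in 1 replicate only. It lies on chromosome 5 from 4715105 to 4718704 (minus strand), with 10 exons and a transcript of 2331 bp that ends in a 3′ UTR of 324 bp. It held 198 hits in CC2, or 13.3 HPM (11.6 to 15.3) and 5.72 HPM per kb, and was not listed in CC1. In CC2 the level of MET1 per kb was 0.77 of that of DRM2, but by hits, without division by length, MET1 exceeded DRM2 by 1.68-fold. Among all loci with 100 to 400 hits in CC2, 9.99% were not listed in CC1. Whether CC1 held fewer than 5 hits on DRM2 or no hit near the 3′ end cannot be told from the deposited values. AT5G14610 ends 28 bp beyond DRM2 on the other strand and held 743 hits in CC1 and 487.0 in CC2.

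DRM1 (AT5G15380), a copy of DRM2 with 63.6% of its aligned residues, was listed in neither replicate. It lies on chromosome 5 from 4991347 to 4994924 on the plus strand, with a transcript of 1973 bp and a 3′ UTR of 98 bp. The gene 213 bp beyond it, AT5G15390, was listed in both replicates with 67 and 271 hits. DRM3 (AT3G17310), on chromosome 3 from 5908934 to 5913345 on the minus strand, was not listed either. AT3G17300 overlaps DRM3 over 70 bp on the other strand and held 2070 hits in CC1 and 1221 in CC2. The overlap holds 21 windows that both transcripts contain, and the authors shared out such hits by the unambiguous ones of each locus.

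In the order of levels per kb, CMT1 stood first, followed by MET2b and MET2, in both replicates. The values of CMT1 (47.6 and 48.5 HPM per kb), MET2b (35.5 and 41.6) and MET2 (19.3 and 28.7) did not overlap between the genes. Those of CMT3 (4.40 and 12.8) overlapped with those of MET1 (4.35 and 4.42), and the single value of DRM2 (5.72) lay within the range of CMT3, so that CMT3 was not resolved from either. MET3 and CMT2 came last in CC2. Without division by length, MET2b stood first in both replicates, and the ranges of CMT1 (123 and 126 HPM) and MET2 (90.8 and 135 HPM) overlapped.

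The differences between the replicates were set beside those of all loci. Of the 5 members listed in both, 1 (CMT3) differed at least 2-fold, against 30.2% of all 13426 loci listed in both. In the abundance quintile of CMT3 and MET1 this share was 30.1%, with a median difference of 1.55-fold. In the highest quintile, which holds MET2, MET2b and CMT1, it was 4.62%, with a median of 1.21-fold. MET2b and CMT1 differed by less than this median and MET2 by more.

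**Figure D4:**
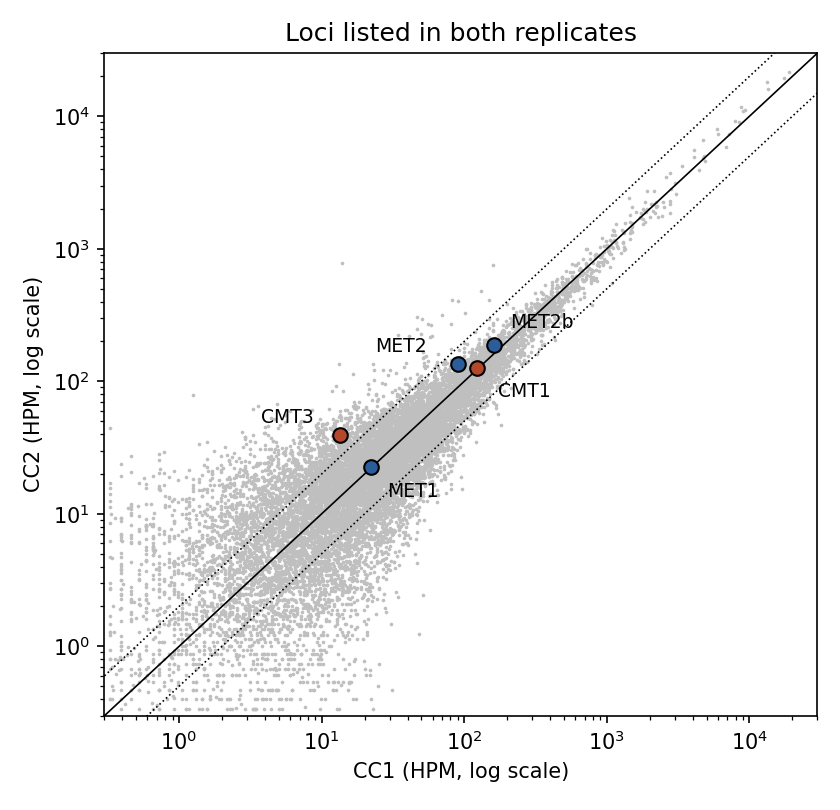
Level of each of the 13426 loci listed in both replicates, in HPM on log axes, with CC1 on the x axis and CC2 on the y axis. The solid line marks equal values and the dotted lines a difference of 2-fold. MET1 and CMT1 lie on the line of equality, MET2 and MET2b above it but within 2-fold, and CMT3 above the upper dotted line.

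The label of the samples was checked against marker genes of the central cell and of other cells. Of all nuclear protein-coding loci, 47.2% were listed in both replicates. All 7 central cell markers, among them FWA, FIS2 and DME, were listed in both and summed to 1613 HPM in CC1 and 1349 in CC2. Of 4 sperm and pollen markers, GEX2 and DUO1 were not listed, and HAP2 (37 hits) and MGH3 (7 hits) were listed in CC1 only. Of 4 genes of ovule tissue, BEL1 and INO were not listed, BAN held 4.72 HPM in CC1 and 1.14 in CC2, and STK was listed in CC2 only, with 11.6 HPM. All 5 EC1 genes of the egg cell were listed in both replicates with 1355 HPM in CC1 and 902.3 in CC2, EC1.1 and EC1.5 with the most. The photosynthesis genes RBCS1A, CAB1 and LHCB3 summed to 2204 HPM in CC1 and 2396 in CC2. The synergid genes LURE1.1 and LURE1.2 summed to 51.5 HPM in CC1 and 239 in CC2, while the synergid factor MYB98 was not listed. These sums are not scaled by length. Per kb, FWA was the highest central cell marker, with 183.7 HPM in CC1 and 124.8 in CC2. EC1.1 held 1234 and 889 HPM per kb, and every EC1 gene but EC1.3 lay above FWA in both replicates. RBCS1A held 789.5 and 849.6 HPM per kb, and CAB1 and LHCB3 also lay above FWA in both. The part of other cells in the hits of the methyltransferases was not tested.

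Of 7 partners of MET1 in the maintenance of CG methylation, 1 was listed in both replicates, 3 in 1 and 3 in none, beside 47.2% of all nuclear protein-coding loci in both and 60.5% in at least 1. The gene listed in both was the chromatin remodeller DDM1, with 14.0 HPM in CC1 and 6.80 in CC2. VIM1, which guides MET1 to hemimethylated DNA, was not listed, nor were VIM4 and VIM5. VIM2 held 52 hits in CC1 only, and VIM3 (59.0) and VIM6 (39) held hits in CC2 only. The VIM genes are close copies of each other, and hits could have been shared among them. MSI1 and RBR1, known to repress MET1 during female gametophyte development, were listed in both replicates, MSI1 with 47.1 ± 22.8 HPM and RBR1 with 15.6 ± 5.18 (SD, n = 2).

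All 4 genes of the list of those that act with CMT3 or against it were listed in both replicates, beside the same 47.2% of nuclear protein-coding loci. Among the histone methyltransferases for H3 lysine 9 that provide its binding sites, SUVH6 held 93.7 ± 6.92 HPM (SD, n = 2), SUVH4 (KRYPTONITE) 19.1 ± 4.63 and SUVH5 6.21 ± 3.64. The histone demethylase gene IBM1, which keeps CMT3-dependent methylation out of genes, held 23.1 HPM in CC1 and 10.2 in CC2. Per kb, SUVH6 reached 33.6 HPM in CC1 and 37.3 in CC2, a level above that of CMT3 in both replicates.

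Of 20 genes of RNA-directed DNA methylation, the pathway of DRM2, 10 were listed in both replicates, 7 in 1 and 3 in none. Of all nuclear protein-coding loci, 47.2% were listed in both and 60.5% in at least 1. Among those with a transcript of at least 1973 bp, 75.2% were listed in at least 1. The lists of partners were not matched by length. AGO9, an ARGONAUTE protein of the ovule, had the most hits of the list with 124 ± 8.0 HPM (SD, n = 2), followed by RDM1 with 26.5 HPM in CC1 and 97.2 in CC2. AGO4, which carries the guiding small RNAs in most tissues, held 12.9 HPM in CC1 and 4.58 in CC2. NRPE1, the largest subunit of RNA polymerase V, was listed in both replicates with 20.1 and 39.9 HPM, while NRPD1 of RNA polymerase IV was listed in neither. RDR2, which makes the small RNA precursors double-stranded, held 40 hits in CC2 only. CLSY4 and SUVH9 were the other members of this list that neither replicate listed.

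**Figure D5:**
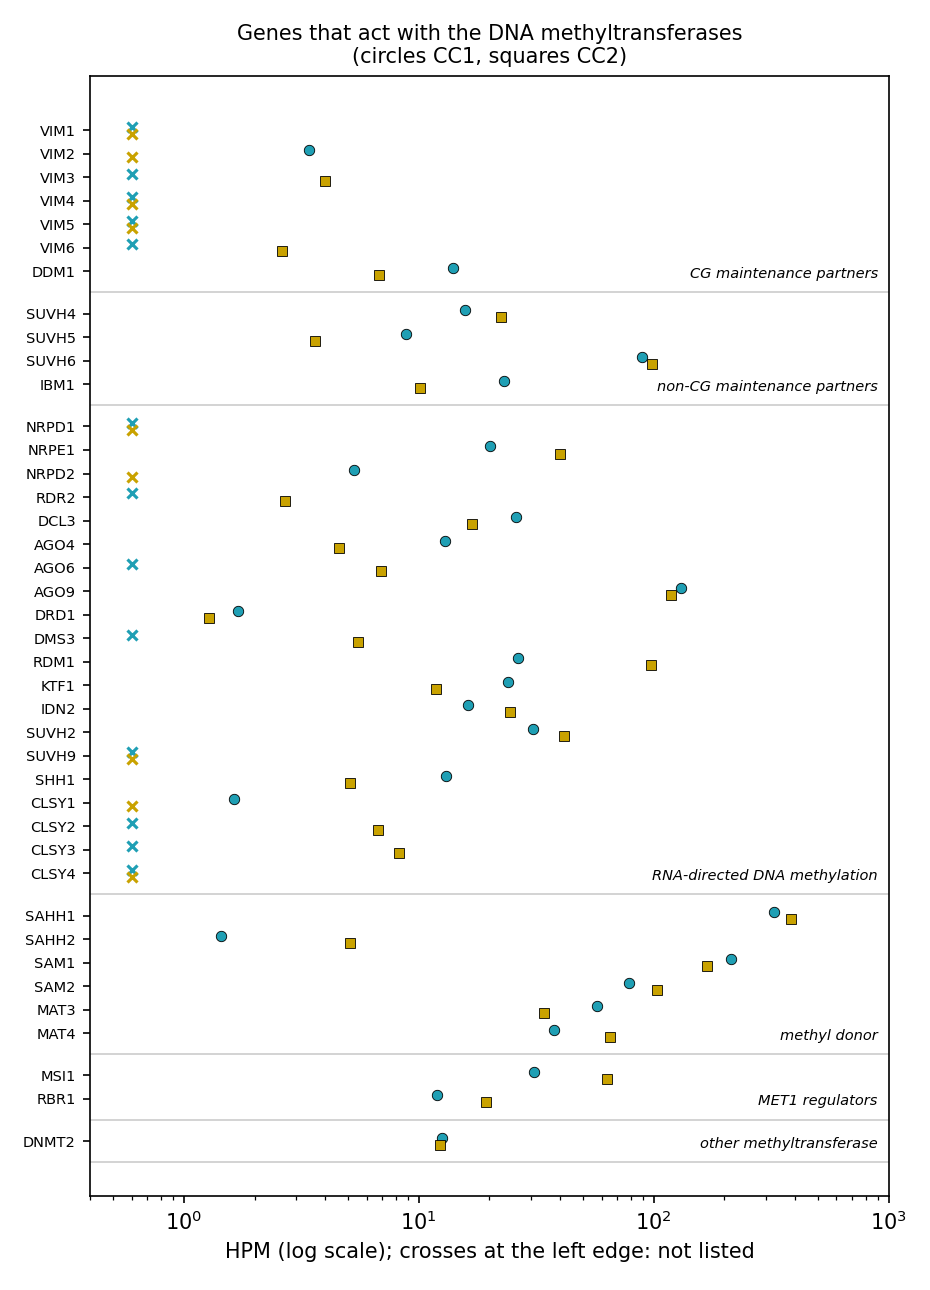
Levels of the partner genes in HPM on a log axis, with CC1 as circles and CC2 as squares, grouped by list. Crosses at the left edge mark genes that were not listed in that replicate. SUVH6 and AGO9 lie near 100 HPM in both replicates, the VIM genes are not listed or lie below 4 HPM, and NRPD1 is listed in neither.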

How the data were processed

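Deposited values are expected counts (estimated counts of weighted hits per locus), which the authors made without scaling by depth or length. They corrected the 50-base SOLiD reads with SAET 2.2, aligned them with TopHat 1.2 to TAIR10 allowing up to 10 alignments per read, weighted these by unique reads nearby and shared ambiguous hits out by the unambiguous ones. The replicates were not pooled. Loci with under 5 hits, or without a hit in the last 250 bases of a transcript, had been removed.

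HPM (hits per 1000000 hits listed in a library), HPM per kb and Wilson intervals were computed from them in Python 3.11.15 (pandas 2.3.3, scipy 1.17.1), with an unlisted locus entered as 0 in sums only. RefSeq's TAIR10.1 genome and annotation gave positions, transcripts and sequences. Proteins translated from it were aligned in pairs with Biopython 1.88 (BLOSUM62). Windows were compared on both strands. TMM factors (edgeR 4.0.16) and DESeq2 1.42.0 size factors served as other scalings, on hits rounded to whole numbers, and the step was tested on simulated counts. The members and the lists of partners and markers were chosen with earlier results of these data known. All members are named and, of each list of partners, the 2 genes with the most HPM and others needed in the text. Markers were named as examples, with no such rule. Of the 66 list names, 63 were found in the annotation under that name. With 1 condition and 2 replicates no p-value was computed. Alternatives were other totals, transcript lengths, hit minimums and folds, and leaving out each replicate.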

Additional observations from a re-analysis of the deposited data

How the results depend on the processing

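Scaling to nuclear hits, TMM or DESeq2 size factors and setting unlisted members to 4 hits moved the sums of the family and of each class by less than the SD between the replicates. Leaving the 100 loci with the most hits out of the totals raised the family to 684.8, the MET class to 454.0 and the CMT class to 220.9 HPM, by construction, since the totals shrink. The median level of the 8 listed members was 7.15 HPM per kb. It was 24.2 HPM without division by length, and 9.24 or 19.4 HPM per kb with a single replicate, since CC1 lists 5 members. The number of members listed was 8 at a minimum of 10 hits, 7 at 20, 5 in both replicates, and 5 to 8 with a replicate left out. With the shortest transcript as the length, MET1 stood above CMT3 in CC1. In the main scaling CMT3 alone differed at least 1.5-fold between the replicates, and MET2 stood just below with 1.49-fold. With TMM factors, an alternative added after seeing the data, 2 members did (MET2 with a log2 ratio of 0.65). Under DESeq2 size factors MET2 had a log2 ratio of 0.64, also more than 1.5-fold. Every one of the 5 members listed in both kept its direction under the 3 scalings tried. No paired analysis was possible because there is 1 group. Depth limits MET3 and CMT2, whose values rest on 27.9 and 14 hits of 1 replicate. With 2 pools of cells, the spread of the dissection, of the amplification and of the cells cannot be told apart.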

Other observations

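The genes that supply the methyl donor differed widely in level. All 6 genes of the list were listed in both replicates, beside 47.2% of all nuclear protein-coding loci. They summed to 712.7 HPM in CC1 and 758.9 in CC2. SAHH1, which removes the product inhibitor S-adenosylhomocysteine, held 354 ± 41.1 HPM (SD, n = 2), and the S-adenosylmethionine synthetase gene SAM1 191 ± 31.4. SAHH2, the close copy of SAHH1, held 1.44 HPM in CC1 and 5.12 in CC2, neither a whole number of hits. DNMT2, a relative of the DNA methyltransferases known for the methylation of transfer RNA, was listed in both replicates with 192 and 183 hits, or 12.5 ± 0.19 HPM, and at 8.87 and 8.68 HPM per kb lay close to the median listed protein-coding locus.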
